A study of Mus musculus with 78 samples.

Results

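The genes described here are 42 of the 54446 genes in the RNA-seq tables of a TRIM28 degradation experiment in mouse embryonic stem cells (mESCs), chosen because their mRNA was high both at 24 h and at 96 h of treatment. A gene entered when its mean at 24 h was at least 5 TPM (a transcript level corrected for transcript length and sequencing depth) and when both (24 h + 1)/(DMSO + 1) and (96 h + 1)/(DMSO + 1) were at least 3. Genes named Gm, Mir, mt-, Hist, Alox, Vnn, Robo, Slit, Col, Lam or Hox, or ending in Rik, were left out, and the limit of 200 genes was not reached. Of 12154 genes with a mean of at least 5 TPM at 24 h, 215 met the 24 h ratio and 59 also met the 96 h ratio. The name rule removed 17 of those 59.

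The mESCs were a TRIM28-FKBP line, a clone of V6.5 cells in which endogenous TRIM28 carries an FKBP degron tag, so that the ligand dTAG-13 sends the protein to the proteasome. All groups of the time course carried this tag, including the controls in DMSO, which is the solvent. Cells were exposed to 500 nM dTAG-13 for 2 h, 6 h, 24 h or 96 h, and mRNA was sequenced in 3 replicates per group after 2 rounds of feeder depletion. New transcription was measured by TT-SLAM-seq, in which a 15-min pulse of 4sU marks fresh RNA, in DMSO and at 2 h, 6 h and 24 h of dTAG-13 (3 replicates each). ChIP-seq peaks were given for DMSO and 24 h dTAG-13, with 3 replicates for H3K9me3 and H3K27Ac and 2 for Pol2 and Med23. A second TRIM28-FKBP line carried doxycycline-inducible hairpins (shERV) against 4 families of endogenous retroviruses (ERVs), namely IAP, MMERVK10C, MMERVK9C and MMETn, and was grown on CD1 feeder fibroblasts. Its 3 groups of 3 libraries were DMSO, 24 h dTAG-13 and dTAG-13 with doxycycline (Dox + dTAG-13). The labels list 2 µg/ml doxycycline in the treatment text of all 3 groups but name Dox as the treatment of the third alone. Parental V6.5 mESCs on feeders and neural progenitor cells (NPCs, of strain V6.5 and in DMSO) were sequenced with 3 replicates each, and whether the NPCs carry the tag is not given in the sources used here.

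TRIM28 is a corepressor that KRAB zinc finger proteins bring to ERVs and to imprinting control regions in mESCs. It recruits the methyltransferase SETDB1, which places H3K9me3, and HP1 proteins that bind this mark, and the chromatin around such sites is kept silent. When the complex is lost, ERVs are transcribed, and some genes close to them can be transcribed too.

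The depth of the libraries limits some values. In TT-SLAM-seq the read totals behind the FPKM values ranged from 6481999 to 24266191. The coverage of the RNA libraries ranged from 0.674 to 1.51 of the median library, apart from the first 24 h library of the time course at 0.285. Trim28 mRNA averaged 624 TPM in DMSO, 372 TPM after 24 h and 192 TPM after 96 h. The tag acts on the protein, which these files do not measure. Markers of other cells were present in the tagged line in DMSO, where 13 of 20 feeder fibroblast, 15 of 18 trophoblast and 18 of 33 endoderm markers averaged 1 TPM or more. The labels do not say which replicates came from separate cultures, so p-values measure only the spread between these libraries. In bulk RNA, more cells expressing a gene and more RNA per cell cannot be told apart.

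The largest 24 h ratio belonged to Cthrc1, a secreted glycoprotein of the extracellular matrix. Its mRNA stood at 16.6, 18.3 and 14.5 TPM in DMSO, at 236, 247 and 239 TPM at 24 h and at 80.8, 80.3 and 96.4 TPM at 96 h. All 24 h libraries were thus above all others, and the ratio of means was 13.8 at 24 h and 4.97 at 96 h. Cyp2b23, a cytochrome P450 of a multigene family, had 2.51 to 2.76 TPM in DMSO, 30.5 to 36.9 at 24 h and 8.93 to 12.0 at 96 h. Sfi1, which encodes a centrin-binding protein of the centrosome, had 3.33 to 4.35 TPM in DMSO, 40.0 to 46.7 at 24 h and 22.8 to 24.7 at 96 h. Sfi1 overlaps Drg1 and Gm11400 on the same strand, so reads there may count for more than one gene. These 3 genes were higher at 24 h than at 96 h in every library.

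Other genes had the opposite order, with 96 h above 24 h. The mean was higher at 96 h for 30 of the 42 genes (beside 46.5% of all 17922 genes tested in the time course), all 96 h libraries were above all 24 h libraries for 24 (beside 38.2%) and below them for 10 (beside 42.7%). Both times were used to choose the genes, so nothing is read from these counts. Mest, an imprinted gene expressed from the paternal allele, showed the largest 96 h ratio. It was at 0.307 to 0.534 TPM in DMSO, 5.01 to 7.36 at 24 h and 59.3 to 67.0 at 96 h, which gave ratios of 4.84 and 44.3. H19, an imprinted noncoding RNA of the maternal allele, had 6.85 to 8.05 TPM in DMSO, 29.1 to 33.6 at 24 h and 92.4 to 108 at 96 h. Svop, a transporter-like protein of synaptic vesicles, had the lowest 24 h mean of all 42 genes at 5.87 TPM and reached 31.1 to 31.8 TPM at 96 h. Npr2, the receptor guanylyl cyclase for C-type natriuretic peptide, had 1.39 to 1.69 TPM in DMSO, 9.70 to 10.6 at 24 h and 34.2 to 37.0 at 96 h.

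**Figure D1:**
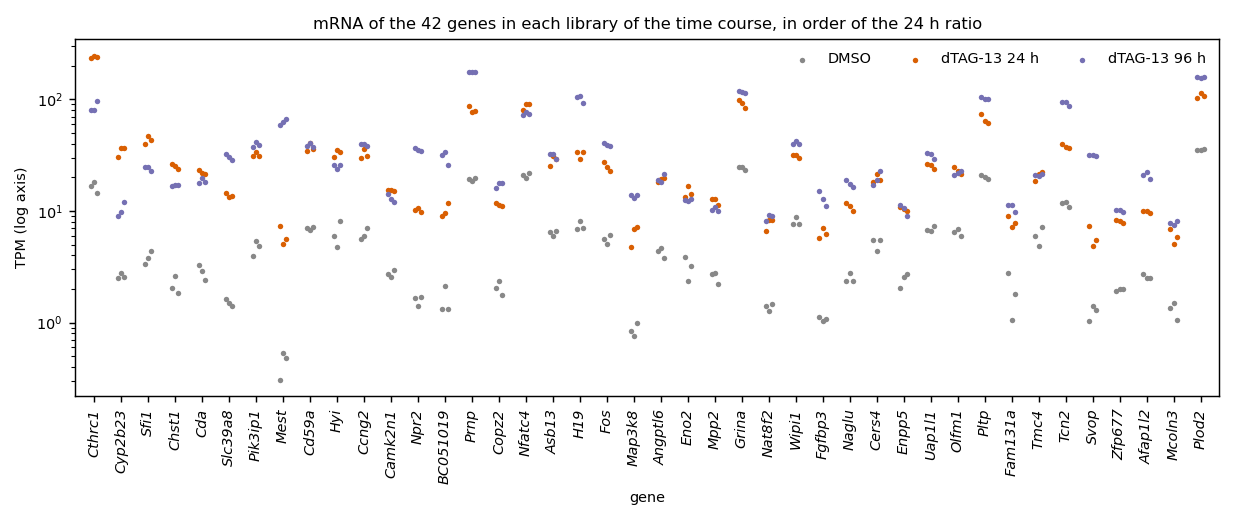
TPM on a log axis for each of the 42 genes, ordered by the 24 h ratio, in the 3 libraries each of DMSO (grey), 24 h dTAG-13 (orange) and 96 h dTAG-13 (purple). All 24 h libraries lie above all DMSO libraries for each gene because the genes were chosen from these values. Cthrc1 is highest at 24 h, whereas Mest lies at 5.01 to 7.36 TPM at 24 h and higher, at 59.3 to 67.0 TPM, at 96 h.

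The other genes with high ratios at 24 h fell into a few functional kinds. Among enzymes, Chst1, a Golgi sulfotransferase, had ratios of 8.24 at 24 h and 5.66 at 96 h, and Cda, the cytidine deaminase of pyrimidine salvage, had 6.01 and 5.09. Hyi, a putative hydroxypyruvate isomerase annotated as a polymorphic pseudogene, had 4.66 and 3.59. Among membrane and surface proteins, the metal importer Slc39a8 had 5.91 and 12.5, the complement inhibitor Cd59a had 4.76 and 4.95, and the prion protein gene Prnp had 4.07 and 8.76. Among signalling regulators, the PI3K inhibitor Pik3ip1 had 5.75 and 7.05, cyclin G2 (Ccng2) had 4.59 and 5.60, and the CaMKII inhibitor Camk2n1 had 4.36 and 3.74. BC051019 had 4.30 and 12.1. Map3k8, a kinase upstream of ERK, and Tcn2, the plasma carrier of vitamin B12, reached the top 10 at 96 h alone, with 7.81 and 7.39. These ratios are the basis on which the genes were chosen and carry no test.

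The DMSO mean was under 5 TPM for 24 of the 42 genes, and 39 were annotated as protein-coding. The rule divides by the DMSO mean and so favours low values there, and nothing is read from the count of 24. At the 24 h threshold, Plod2 (3.01), Mcoln3 (3.02) and Afap1l2 (3.04) lay just inside, and Igfbp4 (2.997), Fam114a1 (2.993) and Adcy6 (2.989) just outside. At the 96 h threshold, Olfm1 (3.09), Cyp2b23 (3.12) and Tmc4 (3.15) lay just inside, and Gbp7 (2.91), Fndc4 (2.73) and Adssl1 (2.73) just outside.

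Large changes in cell markers came with the 96 h libraries. The summed level of 20 feeder fibroblast markers was 851 to 884 TPM in DMSO, 713 to 814 at 24 h and 6783 to 6964 at 96 h. The sum over 18 trophoblast markers was 1349 to 1407, 991 to 1085 and 8061 to 8472 TPM in the same groups, and that over the 33 endoderm markers found was 1685 to 1761, 1646 to 1802 and 8239 to 8550. All 96 h libraries lay above all DMSO libraries for 19 of the 20 feeder markers, 12 of the 18 trophoblast markers and 18 of the 33 endoderm markers, and below them for 0, 3 and 10. Of 12 neural markers 4 lay above and 3 below, and of 12 mesoderm and primitive streak markers 4 and 2. The share of all genes was not computed for this contrast, so nothing is read from these counts. Krt18, Krt8, Tagln and Acta2 made large contributions at 96 h, with means of 3415, 2843, 2588 and 1170 TPM. Krt18 and Krt8 are on both the trophoblast and the endoderm list. Sparc, with a mean of 1405 TPM at 96 h, is on both the feeder and the endoderm list. The sums thus share genes and are not separate measures of each cell type. The fibroblast collagen genes Col1a1 and Col1a2 averaged 8.16 and 2.56 TPM in DMSO and 183 and 50.6 TPM at 96 h. Listed at 0 in every DMSO and 96 h library were Fap, Prl3d1, Afp, Ttr and Cer1. The mRNA of the pluripotency factor Pou5f1 was at 1162 TPM in DMSO, 537 at 24 h and 102 at 96 h. Sox2 was at 205, 131 and 20.9 TPM in the same groups. Nanog was higher at 24 h and lower at 96 h than in DMSO, with 136, 199 and 33.0 TPM. None of the 42 genes is on these marker lists, and the part of such cell changes in the 96 h values was not tested.

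The mRNA was also measured at 2 h and 6 h. At 2 h the levels of Cthrc1 were 15.9, 18.9 and 17.8 TPM, and at 6 h they were 29.1, 31.1 and 28.3 TPM. For Sfi1 the 2 h libraries had 2.94 to 3.80 TPM and the 6 h libraries 8.14 to 8.47. Camk2n1 was at 3.43 to 4.14 TPM at 2 h and at 5.86 to 6.76 at 6 h, BC051019 at 1.49 to 2.02 and 3.39 to 3.67. Mest, in contrast, was at 0.330 to 0.388 TPM at 2 h and 0.275 to 0.356 at 6 h, where the groups overlapped.

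The contrast of 6 h with 2 h used no library of the rule and was tested with limma on log2(TPM + 0.5) across 17922 genes with Benjamini-Hochberg adjustment, with the spread estimated over all 15 time course libraries. A gene was called when its adjusted p was under 0.05 and its change more than 2-fold. Sfi1 alone was called higher, by 1.17 ± 0.09 (log2, SE), with an adjusted p of 4.94e-06 from limma. Of all genes tested, 0.407% were called higher and 0.0893% lower. By adjusted p alone, 24 of the 42 genes were higher and 0 were lower, against 16.2% and 12.9% of all genes. The next largest differences were those of BC051019 (0.86 ± 0.15), Cthrc1 (0.74 ± 0.09), Camk2n1 (0.70 ± 0.08) and Ccng2 (0.68 ± 0.11), which were under 2-fold. The median over the 42 genes was 0.318 on the log2 scale, beside 0.036 over all genes.

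New transcription was read from separate TT-SLAM-seq libraries. The values are FPKM over the whole gene, introns included, so they are low. Cthrc1 had FPKM values of 0.458, 0.405 and 0.534 in the DMSO libraries and of 0.524, 0.346 and 0.571 in the 2 h libraries. The 6 h libraries stood at 0.908, 1.09 and 1.35 FPKM and the 24 h libraries at 6.16, 5.75 and 8.34. The 2 h and DMSO libraries overlapped, while every 6 h and 24 h library was above every DMSO library. Sfi1 had 0.853 to 0.975 FPKM in DMSO, 0.543 to 0.679 at 2 h, 1.38 to 1.84 at 6 h and 5.38 to 6.75 at 24 h. Fos, the immediate early subunit of AP-1, had 1.84 to 2.98 FPKM in DMSO, 4.18 to 5.83 at 2 h, 2.92 to 4.92 at 6 h and 12.6 to 20.3 at 24 h. Its 2 h libraries were all above DMSO and its 6 h libraries were not.

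At 24 h, 12 genes were called higher and 0 lower by limma on log2(FPKM + 0.5), with or without a filter on low values. Without the filter all 42 genes were tested among 34708, of which 0.908% were called higher and 0.303% lower. By adjusted p alone, 39 of the 42 were higher without the filter, beside 20.6% of all genes, and 39 had every 24 h library above every DMSO library, beside 28.3%. The filter of at least 0.5 FPKM in at least 3 libraries kept 25 of the 42 genes among 13357, where 2.49% were called higher and 0.906% lower. For 13 of the 25 the filter was met through the 24 h libraries, so a difference had to follow for them, and of the 12 that met it without those libraries 8 were called higher. The difference was largest for Cthrc1 (2.89 ± 0.15 in log2, adjusted p = 1.11e-05 by limma). It was followed by Fos (2.42 ± 0.24), Sfi1 (2.17 ± 0.10), Ccng2 (1.82 ± 0.12), Pik3ip1 (1.48 ± 0.16), Cd59a (1.30 ± 0.09), Map3k8 (1.25 ± 0.09) and Cyp2b23 (1.19 ± 0.13). Pik3ip1 went from 0.216 to 0.698 FPKM in DMSO to 2.04 to 2.48 at 24 h, and Ccng2 from 0.664 to 0.875 to 3.65 to 4.66. Prnp, Cda, the collagen lysyl hydroxylase Plod2 and Tcn2 were called close to the 2-fold limit, with differences of 1.02 to 1.11.

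The median over all genes at 24 h was 0.212 in log2, and with every library centred to remove this shift 7 of the 42 genes were called higher. The count was 8, 7 and 9 without 24 h library 1, 2 and 3 in turn, where the filter kept 15 genes in place of 25, so these counts differ in the genes tested as well as in the libraries. The added 0.5 FPKM compresses changes of weakly transcribed genes. The FPKM values could be turned back into whole reads for 100% of genes (within 0.1 reads), and a test on these reads with voom and limma, chosen after the data were seen, called 32 of 40 genes higher at 24 h, beside 6.33% of 19039 genes. Its filter was at least 10 reads in at least 3 libraries. Mest, Npr2 and Nat8f2, which are among the 32, met it only through the 24 h libraries, so a difference had to follow for them. The first 24 h library had the most reads and the third the fewest of all 12 libraries.

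**Figure D2:**
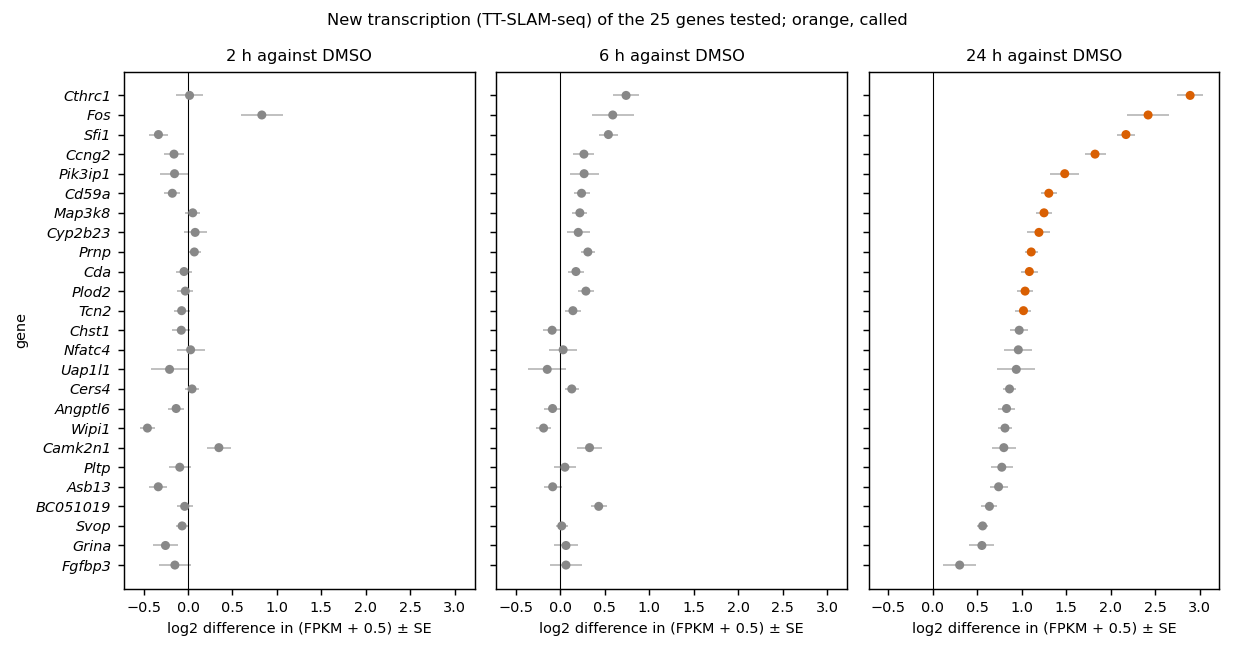
Differences in log2(FPKM + 0.5) from DMSO at 2 h, 6 h and 24 h for the 25 of 42 genes that passed the filter, with bars for the standard error and orange for called genes. The points lie around 0 at 2 h and all lie above 0 at 24 h, from 0.30 for Fgfbp3 to 2.89 for Cthrc1. The filter was met through the 24 h libraries for 13 of these genes.

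Before 24 h, few differences in new transcription passed the test. At 2 h, 0 of the 25 filtered genes were called in either direction by limma, beside 0.127% higher and 0.0973% lower of all genes. An unadjusted p under 0.05 was reached by 2 higher and 3 lower genes, beside 8.18% and 13% of all genes. The test on reads called 2 of 40 genes higher and 1 lower, beside 0.641% and 1.39% of all genes. At 6 h again 0 were called by limma, beside 0.374% of all genes higher and 0.195% lower, and 9 were higher and 1 lower at an unadjusted p under 0.05, beside 20.2% and 6.36%. The test on reads called 3 of 40 higher and 0 lower, beside 0.966% and 0.825%. By adjusted p alone 4 of 25 were higher at 6 h, beside 7.82% of all genes. These were Cthrc1 (0.74 ± 0.15, adjusted p = 0.0203 by limma), Sfi1 (0.54 ± 0.10, adjusted p = 0.0164 by limma), BC051019 (0.43 ± 0.09, adjusted p = 0.0222 by limma) and Prnp (0.31 ± 0.08, adjusted p = 0.0354 by limma). Every 6 h library was above every DMSO library for 10 of the 25 genes, beside 24.0% of all genes. For BC051019 the DMSO libraries had 0.116 to 0.223 FPKM, the 6 h libraries 0.356 to 0.422 and the 24 h libraries 0.512 to 0.542.

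The 17 genes under the filter include Mest, H19, Npr2, Slc39a8 and Nat8f2, and none of them passed 0.619 FPKM in any library. For 15 of them all 24 h libraries were above all DMSO libraries, and for 0 were they below, beside 28.3% and 6.27% of all 34708 genes. Some had few reads in the DMSO libraries, such as Mest (0, 4 and 1) and Npr2 (1, 16 and 4). Mest had 0.00 to 0.0127 FPKM in DMSO and 0.0958 to 0.124 at 24 h, and Slc39a8 had 0.0288 to 0.0412 and 0.361 to 0.378. H19 had 0.00 to 0.101 FPKM in DMSO and 0.0788 to 0.118 at 24 h, where the groups overlapped. Mest overlaps Copg2 on the opposite strand, and counting used strand.

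The shERV line gave a further set of libraries that the rule had not used. Mest was at 0.433, 0.523 and 0.455 TPM in DMSO, at 18.97, 18.3 and 17.5 TPM with dTAG-13 and at 0.527, 0.613 and 0.524 TPM with Dox + dTAG-13. Cthrc1 was at 8.33 to 11.1 TPM in DMSO, 123 to 130 with dTAG-13 and 10.2 to 10.5 with Dox + dTAG-13. Cyp2b23 was at 0.414 to 0.955 TPM, 16.7 to 18.6 and 0.730 to 0.943 in the same groups. In each of these 3 genes the dTAG-13 libraries stood far above the other 6, which overlapped or nearly so. Nat8f2, an N-acetyltransferase of a multigene family, was at 0.605 to 1.13 TPM, 16.5 to 17.6 and 1.01 to 1.47.

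**Figure D3:**
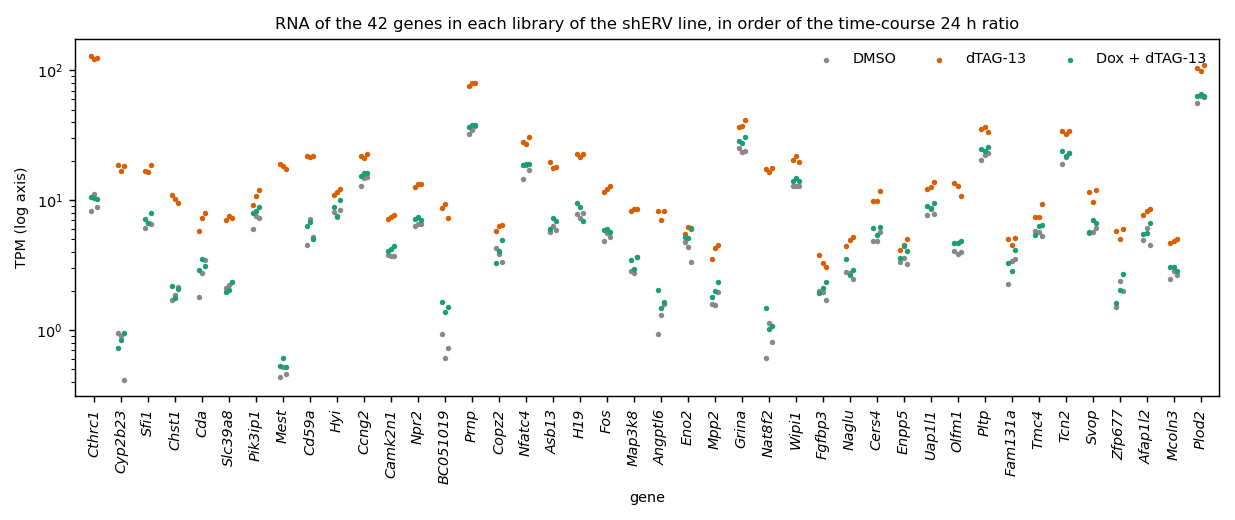
TPM on a log axis for the 42 genes in the 3 libraries each of the shERV line in DMSO (grey), dTAG-13 (orange) and Dox + dTAG-13 (green), in the order of the time-course 24 h ratio. The dTAG-13 libraries lie above DMSO for all 42 genes and above Dox + dTAG-13 for 40 of them.

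Every one of the 42 genes was higher with dTAG-13 than in DMSO by adjusted p, beside 41.2% of all 16166 genes tested, and every one had groups that did not overlap, beside 45.0%. Of these, 19 were called higher, beside 2.38% of all genes, and 0 lower, beside 1.44%. The filter was met through the dTAG-13 libraries for Cyp2b23 and Mest, and 17 of the other 40 were called. The largest differences were those of Mest (4.27 ± 0.10 in log2, adjusted p = 1.45e-10 by limma), Cyp2b23 (3.89 ± 0.16), Nat8f2 (3.73 ± 0.14) and Cthrc1 (3.68 ± 0.08). They were followed by BC051019 (2.84 ± 0.13), the secreted angiopoietin-like protein Angptl6 (2.24 ± 0.15), Chst1 (2.16 ± 0.11) and Cd59a (1.89 ± 0.14). The median over the 42 genes was 0.931, beside 0.138 over all genes. Genes with high ratios in the time course were not all called here, since Pik3ip1 (0.57 ± 0.10), Hyi (0.51 ± 0.10) and Ccng2 (0.60 ± 0.07) differed by less than 2-fold.

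Most of the 42 genes were lower when doxycycline was added. Between Dox + dTAG-13 and dTAG-13, 40 of the 42 genes were lower by adjusted p, beside 29.3% of all genes, and 17 were called lower, beside 1.96%. Of the 40 genes that met the filter without the dTAG-13 libraries 15 were called lower, and the other 2 are Mest and Cyp2b23. The differences were -4.15 ± 0.10 for Mest, -3.78 ± 0.16 for Cyp2b23, -3.54 ± 0.08 for Cthrc1 and -3.40 ± 0.14 for Nat8f2 (limma adjusted p from 2.02e-10 to 1.38e-08 over these). BC051019 (-2.16 ± 0.13), Chst1 (-2.09 ± 0.11), Angptl6 (-1.92 ± 0.15) and Cd59a (-1.78 ± 0.14) came next. The exceptions were the neuronal enolase Eno2 (-0.10 ± 0.11, adjusted p = 0.479 by limma) and Enpp5 (-0.16 ± 0.10, adjusted p = 0.219 by limma). Eno2 had 5.54 to 6.21 TPM with dTAG-13 and 5.16 to 6.10 with Dox + dTAG-13, and Enpp5 had 4.13 to 5.00 and 3.57 to 4.48. The dTAG-13 libraries enter both contrasts, so a high value there raises one difference and lowers the other, and the contrasts are not independent.

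The differences that remained from DMSO were small. Between Dox + dTAG-13 and DMSO, 0 of the 42 genes were called by limma in either direction, with 0 by adjusted p (beside 0.0495% higher of all genes) and 13 higher and 0 lower at an unadjusted p under 0.05 (beside 17.1% and 0.928% of all genes). This contrast had few calls in the whole table, with 0.00619% of genes called higher and 0.0124% lower. The median over the 42 genes was 0.154 in log2, beside 0.085 over all genes, and 41 of the 42 differences were above 0. All Dox + dTAG-13 libraries lay above all DMSO libraries for 16 of the 42 genes, beside 26.1% of all genes. The largest remaining difference was that of BC051019, with 0.609 to 0.935 TPM in DMSO and 1.39 to 1.64 with Dox + dTAG-13 (0.68 ± 0.13, adjusted p = 0.104 by limma).

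Other measures moved with these groups. Trim28 mRNA averaged 270 TPM in DMSO, 206 with dTAG-13 and 284 with Dox + dTAG-13, and Pou5f1 averaged 418, 233 and 413. The summed feeder markers were 2511 to 2691 TPM in DMSO, 3540 to 3761 with dTAG-13 and 2639 to 2769 with Dox + dTAG-13, of which Tagln made 692, 1389 and 695 on average. Col1a1 averaged 72.4, 70.6 and 77.0 TPM in the 3 groups and Acta2 596, 637 and 630 TPM. All dTAG-13 libraries lay above all DMSO libraries for 11 of the 20 feeder markers, beside 45.0% of all 16166 genes tested, and below them for 2. None of the 20 was at 0 in both groups. Of the 17 feeder markers tested in this contrast, Tagln alone was called higher and 0 were called lower. The part of these shifts in the values of the 42 genes was not tested. As the libraries were made from total RNA without ribosomal RNA, their TPM are not set beside those of the time course.

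Mest and H19 are the imprinted genes among the 42. Of 36 imprinted genes tested in the shERV line, Mest (4.27) and H19 (1.48 ± 0.10) were the 2 called higher with dTAG-13, none was called lower, and the same 2 were called lower with Dox + dTAG-13 against dTAG-13. The median over the 36 was 0.181 beside 0.138 over all genes. In TT-SLAM-seq at 24 h, 1 of 21 imprinted genes was called higher, namely Igf2 (1.01), which lies within 100 kb of H19. None of the 16 genes of the TRIM28 complex list was called in these contrasts.

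H3K9me3, the mark that the TRIM28 pathway leaves on chromatin, was compared through the 10000 peaks of highest fold enrichment in each library. A peak lay within 20 kb of the annotated gene start for 12, 12 and 13 of the 42 genes in the DMSO libraries, or 28.6%, 28.6% and 31.0%. The share of all 17922 genes was 10.1%, 11.6% and 10.9% in these libraries. After 24 h of dTAG-13 the numbers were 2, 3 and 2 of the 42 genes (4.76%, 7.14% and 4.76%), beside 3.72%, 4.97% and 3.67% of all genes. The DMSO and dTAG-13 libraries did not overlap in either set, and the distance between the 42 genes and all genes was wider in DMSO than after dTAG-13. The first dTAG-13 library had 11474 peaks in all and the other 5 had 104579 to 147611.

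**Figure D4:**
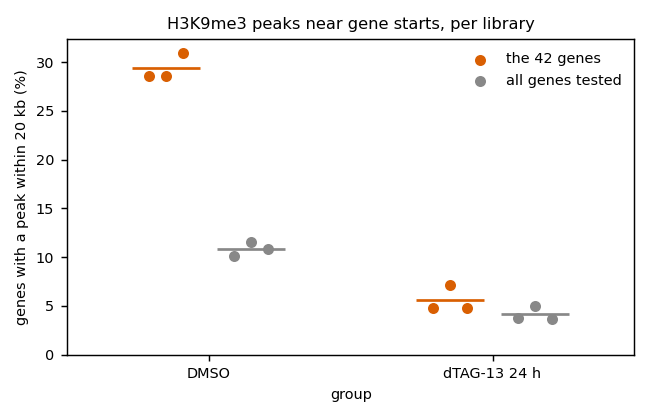
Share of genes (%) with at least 1 of the 10000 strongest H3K9me3 peaks of a library within 20 kb of the gene start, for the 42 genes (orange) and all 17922 genes tested (grey), with 1 point per library and a line at the mean of 3. The 42 genes sit between 28.6% and 31.0% in DMSO and between 4.76% and 7.14% after 24 h of dTAG-13.

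In 8 of the 42 genes (19.05%, beside 3.39% of all genes) one of these strongest peaks was there in every DMSO library and in no dTAG-13 library. They are Cthrc1, Mest, Npr2, H19, Angptl6, Nat8f2, the calcineurin-dependent transcription factor Nfatc4 and the ubiquitin ligase adaptor Asb13. The strongest peak near Mest had fold enrichments of 6.3, 5.3 and 4.9 in the DMSO libraries, that near Npr2 had 6.2, 4.9 and 4.2, and that near Cthrc1 had 5.6, 3.9 and 4.2. Cyp2b23 kept a peak in every library, with enrichments of 4.9, 3.8 and 4.3 in the DMSO libraries and of 3.8, 3.2 and 4.1 in the dTAG-13 libraries. Prnp had one in all 3 DMSO libraries (5.3, 4.4 and 4.4) and in 2 dTAG-13 libraries (3.7 and 3.5). For 26 of the 42 genes (61.9%, beside 82.8% of all genes) none of these 10000 strongest peaks lay within 20 kb in any library. Among them are Chst1, Cda, Pik3ip1, Ccng2, Fos and Svop.

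Promoters of 6 of these 8 genes are printed to show the letters at their RefSeq starts, and Cyp2b23 and Prnp are added for comparison. Peaks were sought around the annotated gene start, which is 9959 and 14503 bp from the 2 printed Mest starts, 1651 bp from that of Nfatc4 and at most 21 bp from the others. RefSeq promoters of build GRCm38.p6 were matched by symbol for 30 of the 42 genes (35 starts), and the 100 bases before a start are printed 5′ to 3′ on the strand of the gene, with CCAAT or its reverse complement ATTGG in capitals.
Mest, first start, chr6:30733406-30733505 (+): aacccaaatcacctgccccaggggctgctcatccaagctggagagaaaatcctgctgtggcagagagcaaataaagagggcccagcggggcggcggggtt
Mest, second start, chr6:30737950-30738049 (+): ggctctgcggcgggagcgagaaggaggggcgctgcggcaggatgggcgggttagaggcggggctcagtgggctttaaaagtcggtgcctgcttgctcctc
Npr2, chr4:43631835-43631934 (+): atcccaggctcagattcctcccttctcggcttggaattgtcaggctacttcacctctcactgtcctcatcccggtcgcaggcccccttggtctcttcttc
Nfatc4, chr14:55824695-55824794 (+): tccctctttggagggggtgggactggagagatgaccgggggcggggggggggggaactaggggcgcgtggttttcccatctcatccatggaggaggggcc
Asb13, chr13:3633932-3634031 (+): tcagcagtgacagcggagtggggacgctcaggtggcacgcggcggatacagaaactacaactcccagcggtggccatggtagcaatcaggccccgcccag
Angptl6, chr9:20879711-20879810 (-): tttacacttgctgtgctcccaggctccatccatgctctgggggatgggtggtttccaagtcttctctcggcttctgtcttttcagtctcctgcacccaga
Nat8f2, chr6:85869138-85869237 (-): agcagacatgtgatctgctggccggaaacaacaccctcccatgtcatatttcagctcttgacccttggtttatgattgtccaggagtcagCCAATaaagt
Cyp2b23, chr7:26686431-26686530 (-): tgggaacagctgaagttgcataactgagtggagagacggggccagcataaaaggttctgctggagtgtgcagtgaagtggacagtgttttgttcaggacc
Prnp, chr2:131909828-131909927 (+): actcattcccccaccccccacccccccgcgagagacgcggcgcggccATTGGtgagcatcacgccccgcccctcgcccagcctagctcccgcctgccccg

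These starts are unlike each other in base composition. In the window from 250 bases before to 50 after the start, the dinucleotide CG occurs 17 times at the second Mest start and at Asb13, 22 times at Prnp, 13 times at Npr2, 5 times at Angptl6, 4 times at Nat8f2 and 2 times at Cyp2b23. Over the 35 starts the median was 13 and the range 1 to 43, beside a median of 7 over all promoters in the table. CCAAT, the core letters bound by NFY, stands in 11 of the 35 windows on either strand (31.43%), beside 37.41% of all 32851 promoters in the table. TATAAA stands in 6 (17.14%, beside 13.62%), CACGTG in 2 (5.71%, beside 7.15%) and AGATAA in 1 (2.86%, beside 11.18%). These matches describe letters and not bound sites.

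Few of the 42 genes lie beside the full-length elements of the MMERVK and MMETn families listed by the study. An element lay within 10 kb of the gene body for Cthrc1 (a gap of 2856 bp) and Cd59a (4496 bp), which is 4.76% of the 42 genes beside 1.63% of all genes. Within 50 kb it was 5 genes (11.9%, beside 4.68%), with Cyp2b23 (19503 bp), Plod2 (21813 bp) and Eno2 (27356 bp) added, and within 100 kb 6 genes (14.29%, beside 8.38%), with Slc39a8 (50123 bp). The element beside Plod2 is an MMERVK9C and the other 5 are MMETn. The study set no size limit in its definition of full-length. By their listed ends, the elements beside Cd59a, Cyp2b23 and Eno2 are far shorter than those beside Cthrc1, Slc39a8 and Plod2. IAP elements were not used here.

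The 42 genes are spread over most chromosomes. There are 7 on chromosome 11 (16.67%, beside 7.53% of all genes), 6 on chromosome 2 (14.29%, beside 7.69%) and 0 on chromosomes 1, 10 and X. Cda and Camk2n1 on chromosome 4 are the only pair within 100 kb, with a gap of 86322 bp. Of 164 other genes within 100 kb of one of the 42 that were tested in TT-SLAM-seq, 10 were called higher at 24 h (6.1%, beside 2.49% of all genes). Of these, Gm11400 and Gm23084 overlap Sfi1 and Asb13 on the same strand and may share their reads. Without the 4 genes found to overlap in this way, 8 of 160 neighbours were called higher (5.00%). Still among these 8 are Prn near Prnp (mean FPKM 0.499 in DMSO and 1.504 at 24 h) and 2 genes near H19. The latter are Igf2 (0.283 and 1.071) and Gm49394 (0.24 and 1.021). Whether the 8 share reads with the 42 genes or with each other was not tested, so 5.00% may still hold shared reads. In the shERV line 2 of 198 other genes within 100 kb of one of the 42 were called higher with dTAG-13 (1.01%, beside 2.38%).

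Marks of active transcription gave no clear difference between the groups at these genes, while the Pol2 and Med23 shares of all genes fell. With the 10000 strongest H3K27Ac peaks and a window of 2 kb, 11, 6 and 3 of the 42 genes had a peak in the DMSO libraries and 6, 8 and 4 in the dTAG-13 libraries, so the groups overlapped. With 5000 peaks, Pol2 lay at 6 and 7 of the 42 genes in the DMSO libraries and at 6 in each dTAG-13 library, and Med23 at 4 and 5 and then at 4 in each. The Pol2 share of the 42 genes was 14.3% and 16.7% in DMSO and 14.3% in each dTAG-13 library. Beside it, the Pol2 share of all genes was 27.2% and 27.1% and then 21.5% and 19.9%. For Med23 the 42 genes had 9.52% and 11.9% and then 9.52% in each. All genes had 12.3% in each DMSO library and then 5.64% and 5.5%. In DMSO H3K27Ac was found at 7.14% to 26.2% of the 42 genes, beside 35.0% to 36.3% of all genes. A Pol2 peak appeared in both dTAG-13 libraries and in neither DMSO library at Cd59a, Asb13 and the phospholipid transfer protein gene Pltp (7.14%, beside 3.1% of all genes). It did the reverse at Prnp, Angptl6 and Uap1l1 (7.14%, beside 8.35%). The dTAG-13 libraries had fewer peaks in all for Pol2 (7689 and 8182, beside 19194 and 19853) and for Med23 (14551 and 15335, beside 58925 and 63045), and the part of this in the values was not tested.

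Many of the 42 genes also differed between NPCs and parental V6.5 mESCs, 2 groups that the rule had not used. Of 41 genes tested, 23 were called higher in NPCs and 7 lower, beside 30.3% and 19.08% of all 17458 genes, and Map3k8 was below the filter. The largest differences were those of Chst1 (4.58 ± 0.12 in log2, adjusted p = 2.7e-10 by limma), Svop (4.52 ± 0.10), the FGF-binding protein gene Fgfbp3 (4.42 ± 0.08) and Fam131a (3.90 ± 0.28). Npr2 (3.82 ± 0.08), the secreted neural glycoprotein gene Olfm1 (3.82 ± 0.06), Prnp (3.53 ± 0.04) and Camk2n1 (3.35 ± 0.06) came next. Prnp had 10.4 to 11.0 TPM in parental mESCs and 127 to 134 in NPCs, and Chst1 had 0.191 to 0.310 and 15.8 to 18.3. The median over the 41 genes was 1.27 in log2, beside 0.222 over all genes. With every library centred, which removes that shift, 18 were called higher and 9 lower.

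**Figure D5:**
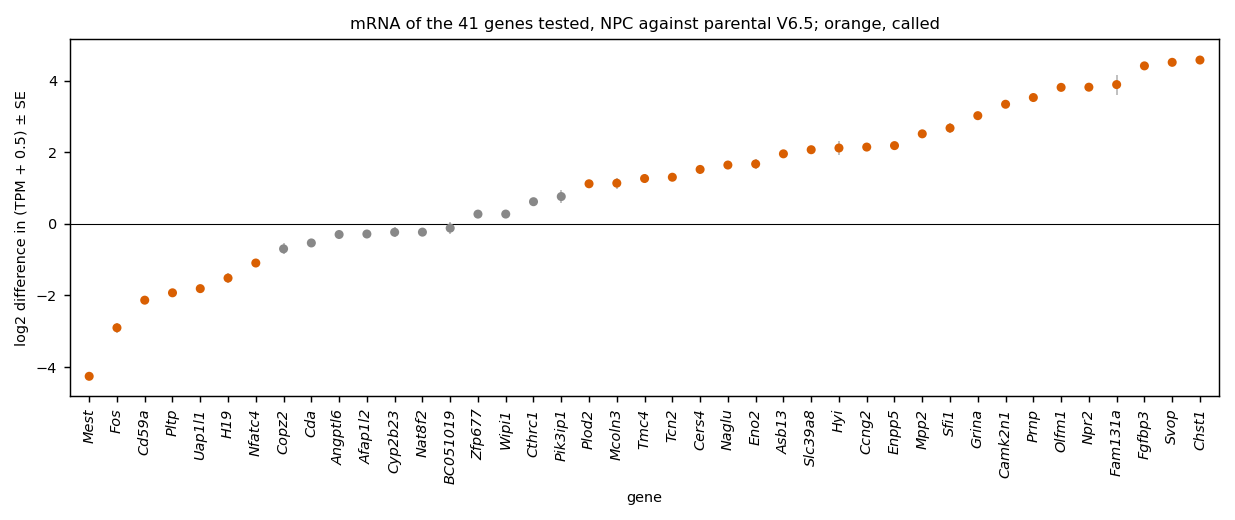
Differences in log2(TPM + 0.5) between NPCs and parental V6.5 mESCs for the 41 genes tested, with bars for the standard error and orange for called genes. They run from -4.26 for Mest to 4.58 for Chst1, with 23 called above 0 and 7 below.

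The 7 genes called lower in NPCs were Mest (-4.26 ± 0.10), Fos (-2.90 ± 0.14), Cd59a (-2.13 ± 0.08), Pltp (-1.92 ± 0.05), the pyrophosphorylase-like gene Uap1l1 (-1.81 ± 0.10), H19 (-1.51 ± 0.14) and Nfatc4 (-1.09 ± 0.05). Mest was at 63.1 to 65.4 TPM in parental mESCs and at 2.72 to 3.15 in NPCs, while the tagged line in DMSO had 0.307 to 0.534. The level of Mest in the tagged line after 96 h of dTAG-13 (59.3 to 67.0 TPM) overlapped that of the parental line. Fos was at 71.6 to 74.2 TPM in parental mESCs, at 7.15 to 11.0 in NPCs and at 5.09 to 6.06 in the tagged line in DMSO. Mest and Fos were thus lower in NPCs than in the parental line but higher than in the tagged line in DMSO, while the other 5 were lower in NPCs than in both by their means. The parental cells are given as grown on feeders. The methods describe feeder depletion of mESCs before RNA-seq without naming a line, so whether this culture step differed is unclear. Line and culture cannot be told apart here. Over the 42 genes, 26 were higher and 9 lower in the tagged line in DMSO than in parental mESCs with no overlap of libraries, beside 44.5% and 25.9% of all genes tested. The DMSO libraries were used to choose the genes, so nothing is read from these counts.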

How the data were processed

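Per the labels and the methods, the authors aligned RNA-seq reads to mm10 with STAR 2.7.5a after trimming with cutadapt 2.4 and estimated TPM with StringTie 2.0.6. The time course and NPC libraries were stranded poly(A) RNA, and the shERV libraries total RNA depleted of ribosomal RNA. The deposited FPKM of TT-SLAM-seq came from T-to-C reads counted per gene by strand, where a read in overlapping genes of one strand counts for each. Peaks were called by the authors with MACS2 per library, and the deposited files give a pileup signal, a score, a fold enrichment ratio and a −log10 p-value and q-value, of which the fold ratio was used for ranking. The deposited full-length ERV positions were used as coordinates.

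The RNA tables share 54446 genes, 53229 of them with the position of GENCODE vM21. Values were tested as log2(TPM + 0.5) or log2(FPKM + 0.5) in R 4.3.3 by the moderated test of limma 3.58.1 (trended eBayes on lmFit, adjusted by Benjamini-Hochberg over all genes tested), after a filter of at least 1 TPM or 0.5 FPKM in at least 3 libraries of the fit, and differences are on that scale, which understates changes of low genes. One fit each was made of 12 TT-SLAM-seq, 15 time course, 9 shERV and 9 parental, NPC and DMSO libraries. Each step was tested on simulated data. StringTie values give no read depth, so RNA depth is given as relative coverage.

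The 42 genes and the gene lists were chosen with earlier results of these data known. Named genes are the 15 highest 24 h and 10 highest 96 h ratios, up to 8 called genes of largest difference in each direction whose groups do not overlap, imprinted members, genes at the thresholds, members within 100 kb of another, Trim28 and Cthrc1. Others (among them Eno2, Enpp5, Igf2, Pou5f1, Sox2, Nanog, Krt8, Krt18, Sparc, Tagln and Acta2) were named after their values were seen. Single-cell, Hi-C and input files were not used here.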

Additional observations from a re-analysis of the deposited data

How the results depend on the processing

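Of 79 calls of single genes, 64 were kept under every alternative run, 15 were lost under at least 1 and 0 turned direction. A ratio of 2 in place of 3 gave 200 genes (the limit) and a ratio of 4 gave 14, and without each library in turn the rule gave 39 to 49 genes. The count of genes called higher in TT-SLAM-seq at 24 h (12) was 23 with a pseudocount of 0.1, 6 with a pseudocount of 1, 1 when only genes averaging 5 FPKM or more were kept (Fos, the only one tested), 7 with every library centred, and 7 to 13 without each library in turn, with 7 without the second 24 h library (15 genes tested). With voom on recovered reads, chosen after seeing the data, it was 21, and 32 with at least 10 reads in at least 3 libraries. Mest, Npr2 and Nat8f2 met that last filter only through the 24 h libraries. At 6 h the count higher (0) was 1 with a pseudocount of 0.1 and 2 and 3 in those tests on reads, and at 2 h they gave 0 and 2 higher and 1 and 1 lower. At 2 h the median was -0.072, and under that same cutoff of 5 only Fos was left, with a value of 0.83. The cutoff at a mean of 5 TPM gave 11 in place of 19 genes higher with dTAG-13 in the shERV line and 10 in place of 17 lower with Dox + dTAG-13, and without each library in turn these were 17 to 20 and 14 to 18. The cause of the other shifts was not tested.

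The change in the share of genes with an H3K9me3 peak (-23.81 percentage points, and -24.603 to -23.016 without each library) was -34.921 with all deposited peaks, -7.937 with a window of 5 kb and -34.921 with 50 kb. That for H3K27Ac (-1.587) was -23.016 with all peaks, 3.175 with 0.5 times the number used, 6.349 within 10 kb and -5.952 to 3.571 without each library, turning direction without the first DMSO library (3.571) and without the third dTAG-13 library (0.794). That for Pol2 (-1.19) was -20.238 with all peaks, -2.381 with 0.5 times the number used and 3.571 within 10 kb, and that for Med23 (-1.19) was -55.952, -3.571 within 1 kb and 7.143 within 10 kb. With all peaks, libraries of unequal peak number are compared.

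Replicate numbers did not pair the libraries, as same-numbered libraries had correlations of -0.205 to 0.177 and none of the comparisons had all 3 above 0.1. With the replicate number as a block the counts were the same, with 12 genes higher in TT-SLAM-seq at 24 h, 19 higher with dTAG-13 in the shERV line and 17 lower with Dox + dTAG-13.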
